A study of Bos taurus with 2 samples.

Results

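The HOX genes of clusters A to D were read across the cell types of the bovine mammary gland. All 39 genes whose symbol is HOXA, HOXB, HOXC or HOXD followed by digits were taken, out of 27270 genes in the count tables: 11 of HOXA, 10 of HOXB, 9 of HOXC and 9 of HOXD. The choice used names and no measured value. HOX genes encode homeodomain transcription factors that give cells a position along the body axis. They lie in clusters, and genes of low number at one end mark anterior regions while genes of high number at the other end mark posterior ones. Fibroblasts and vessel lining cells keep part of this address in the grown body, and in mice Hoxa9, Hoxb9 and Hoxd9 act together in the mammary gland at pregnancy.

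Mammary tissue of Holstein dairy cattle was profiled by single-cell RNA sequencing, with 1 library from an adult labelled as lactating and 1 from a newborn; the labels give no age in days, no treatment and no count of animals. Fat was cut away, and the rest was loosened with EDTA, broken down with collagenases, hyaluronidase and DNase, and strained, which can lose fat cells and large cells. Both libraries were made with the 10x 3' kit, in which each captured molecule is counted by its molecular identifier (UMI) near its 3' end. UMI counts therefore do not grow with transcript length, and levels are compared between genes as CPM, counts per 1000000 UMIs of the same cells.

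The adult library held 15897 barcodes and 85388618 UMIs, and the newborn library 13772 barcodes and 65597671 UMIs. HOX genes contributed 9161 and 14360 of these UMIs. Cells were sorted into classes by held marker genes, since no cell annotation was used, so each name below means cells that passed that gate. The gates placed 63.5% of 14691 adult and 92.1% of 13710 newborn cells that passed the cell filter, and 57 barcode sequences occurred in both libraries. Genes that the gates did not use matched the names. In the adult, 6 further fibroblast genes summed to 18221 CPM in fibroblasts against 75.2 in immune cells, 6 further endothelial genes to 1004 CPM in endothelium against 28.0, and 6 further epithelial genes to 1894 CPM in epithelium against 57.5. In the newborn, the fibroblast genes reached 6063 CPM in fibroblasts and 373 in immune cells, and the endothelial genes 1283 CPM in endothelium and 2.85 in fibroblasts. Stage, animal, handling and library cannot be told apart with 1 library a stage, so no p-value is given. Intervals are exact 95% intervals and, like the limits given for a count of 0 (up to 3 counts), cover counting error only.

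HOX transcripts were most abundant in endothelium, followed by fibroblasts, and were far scarcer in epithelium and immune cells. In the adult, the 39 genes summed to 423 CPM (411 to 436) over 1712 endothelial cells, 236 CPM (205 to 270) over 244 fibroblasts and 44.4 CPM (41.7 to 47.2) over 993 epithelial cells. In the newborn, they summed to 224 CPM (221 to 228) over 12252 fibroblasts and 344 CPM (268 to 436) over 29 endothelial cells. No newborn cell entered the epithelial class. Adult immune cells, 6376 in number, carried 10.3 CPM (8.99 to 11.8), and 351 newborn immune cells carried 9.56 CPM (3.51 to 20.8) on 6 UMIs. The intervals of endothelium, fibroblasts, epithelium and immune cells did not overlap within the adult library. The endothelial level is mainly that of lymphatic cells, 1593 of the 1712: the 119 others carried 224 CPM (191 to 262), and the ratio of fibroblasts over them was 1.05 (0.854 to 1.30). The adult epithelial level depended on the deepest cells: it was 145.8 CPM with the deepest 10% of cells left out, and the milk-secreting cells had a median of 41780 UMIs.

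Shares of cells with a HOX UMI kept that order once every cell was thinned to 1000 UMIs. The share was 37.2% (34.9 to 39.6) in adult endothelium, 23.1% (17.5 to 29.4) in adult fibroblasts and 6.95% (5.41 to 8.75) in adult epithelium, against 81.7%, 48.8% and 36.2% before thinning. In the newborn, it was 21.3% (20.6 to 22.0) in fibroblasts and 44.8% (26.4 to 64.3) in the 29 endothelial cells, against 57.3% and 69.0% before thinning. Immune cells had a share of 1.19% (0.932 to 1.51) in the adult and 1.09% (0.226 to 3.17) in the newborn. They serve as a reference for RNA from outside the cell, from which their own HOX transcripts were not separated. Median depths before thinning were 3780, 2394, 12432 and 2765 UMIs in adult endothelium, fibroblasts, epithelium and immune cells, and 4810, 5168 and 1325 in newborn fibroblasts, endothelium and immune cells. Thinning left out 36 adult and 816 newborn fibroblasts, 42 adult and 0 newborn endothelial cells, 43 epithelial cells, and 512 adult and 77 newborn immune cells as too shallow.

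Most cells showed at most 1 HOX gene at this depth. Of 10509 newborn fibroblasts thinned to 2000 UMIs, 66.1% had none, 25.7% had 1, 6.51% had 2 and 1.64% had 3 or more, with at most 6. In adult endothelium 7.10% of 1423 cells had 3 or more. At these levels a missing UMI is no sign that a cell lacks the transcript.

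**Figure D1:**
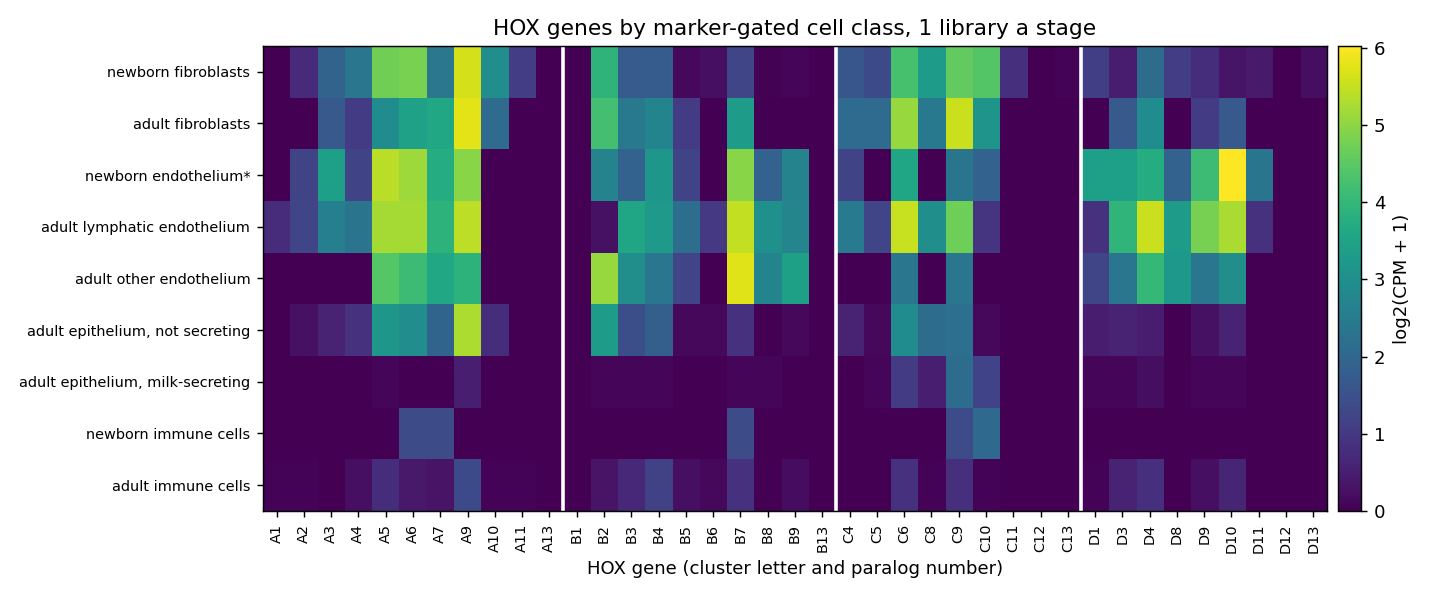
Colour gives log2(CPM + 1) for each of the 39 HOX genes (columns, by cluster and number) in marker-gated cells (rows), with 1 library a stage. The newborn endothelium marked with an asterisk is the class of 84 cells in which fibroblast markers were allowed. Fibroblasts are bright at A9, A5, A6, B2, C6, C9 and C10. Lymphatic endothelium is bright at B7 and in HOXD, and dark at B2 and C10. The milk-secreting row is brightest at C9 (3.37 CPM), and no member exceeds 3.19 CPM in the immune rows.

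The clusters were used unequally, and differently in each cell type. In newborn fibroblasts HOXA gave 53.8% (53.0 to 54.7) and HOXC 33.6% (32.8 to 34.4) of HOX UMIs, while HOXB gave 9.24% and HOXD 3.37%. Adult fibroblasts had 37.6% (31.0 to 44.4) from HOXA, 41.3% (34.6 to 48.2) from HOXC, 16.0% from HOXB and 5.16% (2.61 to 9.05) from HOXD. HOXA and HOXC thus made up most HOX transcripts of fibroblasts at both stages. In adult endothelium HOXD gave 30.2% (28.9 to 31.6), close to HOXA at 31.7%, with 19.4% from HOXB and 18.6% from HOXC. In the 29 newborn endothelial cells HOXD gave 36.2% (25.0 to 48.7) and HOXC 5.80% (1.60 to 14.2). Adult epithelium that was not secreting milk drew 65.6% (62.3 to 68.7) from HOXA and 2.30% from HOXD. HOXD thus had a larger share in endothelium than in fibroblasts or epithelium. The adult endothelial share was that of the lymphatic cells, at 30.7% (29.4 to 32.1), while the 119 other endothelial cells drew 17.9% (12.3 to 24.7) from HOXD and 50.6% (42.7 to 58.5) from HOXB.

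By number, the anterior genes of groups 1 to 3 gave the smallest share. They made up 9.59% of HOX UMIs in newborn fibroblasts, 11.3% in adult fibroblasts, 8.04% in adult endothelium and 12.6% in adult epithelium. Groups 9 to 13 gave 45.5%, 48.4%, 31.1% and 50.9% in the same order, and nearly all of that came from groups 9 and 10. HOXA13, HOXB1, HOXB13, HOXC12 and HOXD12 had 0 UMIs in both libraries. HOXA11, a gene of the uterus and forearm, reached 1.12 CPM in newborn fibroblasts, HOXC11 0.762 CPM, HOXD11 0.357 CPM, HOXD13 0.162 CPM and HOXC13, a regulator of hair keratins, 0.0486 CPM on 3 UMIs. None of these 5 had a UMI in adult fibroblasts, where 0 UMIs allow up to 3.32 CPM, so their presence there was not detectable at this depth.

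**Figure D2:**
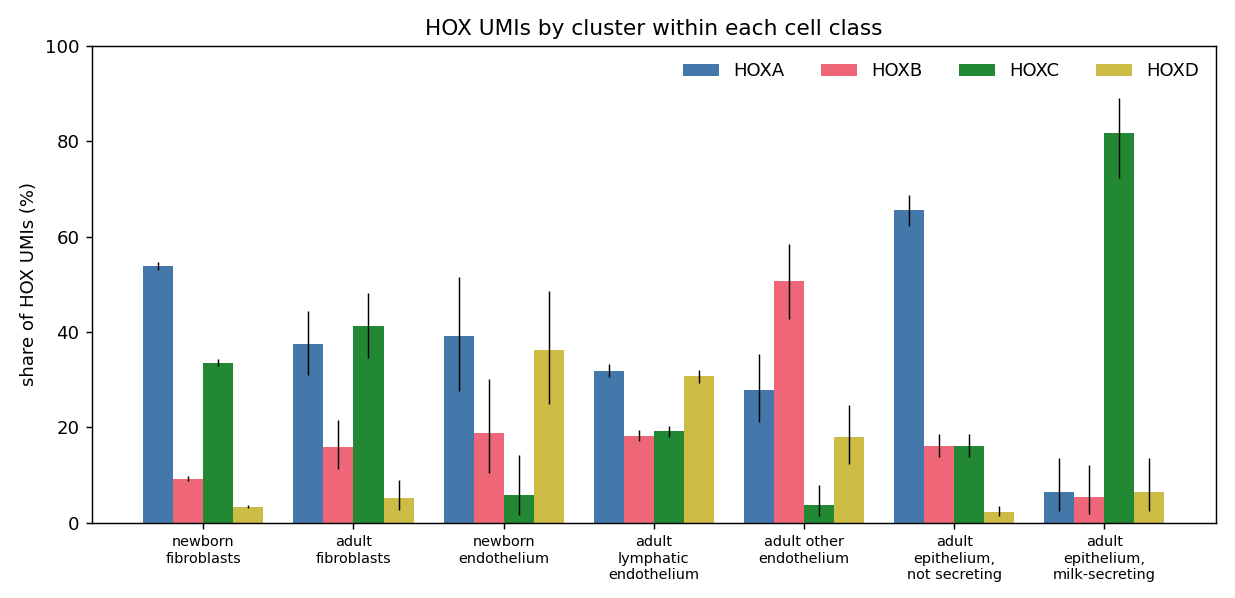
Bars give the share of HOX UMIs (percent, from 0) that came from HOXA, HOXB, HOXC and HOXD in each class, with exact binomial intervals. HOXD is near 30% or above in newborn and adult lymphatic endothelium and under 6% in fibroblasts. Newborn endothelium here is the class of 29 cells.

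In newborn fibroblasts, the deepest class with 61664464 UMIs, HOXA9 stood above every other member. HOXA9, a gene of mammary growth and blood progenitors, had 48.5 CPM (46.7 to 50.2) there, with a UMI in 2347 of 12252 cells. HOXA6 followed at 27.4 CPM (26.1 to 28.7), and HOXA5, a gene of lung and airway development, at 25.3 CPM (24.1 to 26.6), with overlapping intervals. HOXC9, of the thoracic region, had 23.0 CPM (21.8 to 24.2). HOXC10, of the hind limb and lumbar region, had 20.2 CPM (19.1 to 21.4) and did not separate from HOXC6 at 18.5 CPM (17.4 to 19.6). HOXB2, best known from the hindbrain, had 14.2 CPM (13.3 to 15.2). HOXC8 at 9.15 CPM and HOXA10, a gene of the uterus, at 6.80 CPM closed the group above 5 CPM. The remaining counted members lay between 0.0162 and 4.20 CPM. Of 39 members, 32 had at least 3 UMIs in newborn fibroblasts.

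Genes of the same number in different clusters were far apart in newborn fibroblasts in group 9 and near each other in group 4. In group 4, HOXA4 had 4.17 CPM, HOXD4 3.36, HOXB4 2.38 and HOXC4 2.08. In group 9, HOXA9 and HOXC9 stood at 48.5 and 23.0 CPM, HOXD9 at 0.730 CPM and HOXB9 at 0.0811 CPM on 5 UMIs. In adult endothelium all members of group 9 were counted, at 40.0 CPM for HOXA9, 25.2 for HOXD9, 23.3 for HOXC9 and 6.0 for HOXB9. The A and C copies of group 9 were thus far above its others in newborn fibroblasts, and no copy of it was missing in endothelium.

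In adult fibroblasts 16 of 39 members reached 3 UMIs, over 902672 UMIs. HOXA9 came first again at 54.3 CPM (40.2 to 71.8), followed by HOXC9 at 45.4 CPM (32.6 to 61.6) and HOXC6 at 33.2 CPM (22.4 to 47.4), and these neighbours did not separate. HOXB2 had 17.7 CPM (10.1 to 28.8), HOXA7 11.1 CPM (5.31 to 20.4), HOXA6 9.97 CPM (4.56 to 18.9) and HOXB7 8.86 CPM (3.83 to 17.5). HOXC10 had 7.76 CPM on 7 UMIs and HOXA5 6.65 CPM on 6 UMIs. Of the members that reached 3 UMIs in newborn but not in adult fibroblasts, all but HOXA4 lay in the newborn under the 3.32 CPM that 3 UMIs stand for in the adult.

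The summed HOX level of fibroblasts differed little between the stages: the ratio of newborn over adult was 0.951 (0.831 to 1.09). Of the 16 members with enough UMIs to be compared (20 or more in the higher library), 0 differed by 4-fold or more, against 8.31% of all 8191 genes compared. With so few members this count is not read as a difference from the background. The limit of 20 UMIs stands for 22.2 CPM in adult but only 0.324 CPM in newborn fibroblasts, so that members higher in the adult could enter only at a high level. HOXA2, HOXA11, HOXC11, HOXD1, HOXD8 and HOXD11 entered with 0 adult UMIs and at most 1.17 CPM in the newborn. That is under the 3.32 CPM that 0 adult UMIs allow, so no 4-fold call was possible for them. Differences beyond counting error went both ways. HOXA5 was 3.81-fold (1.75 to 10.4), HOXA6 2.74-fold (1.44 to 6.01) and HOXC10 2.61-fold (1.26 to 6.51) higher in the newborn. HOXC9 was at 0.506 (0.371 to 0.708), HOXC6 at 0.557 (0.388 to 0.829) and HOXA7, on 10 adult UMIs, at 0.379 (0.203 to 0.80) of its adult level. HOXB7 differed most, 6.28-fold (2.63 to 12.9) higher in the adult, but its 8 adult UMIs were too few for it to be among the members compared. The interval of HOXA9 held 1, with a ratio of 0.893 (0.674 to 1.21).

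These ratios depend on the scale. Over 8849 genes the median ratio was 0.639, a log2 shift of -0.65, so the typical gene had a lower CPM in newborn fibroblasts. Relative to that median gene, the summed HOX ratio was 1.49 (1.30 to 1.71), and 4 of 18 members passed 4-fold, against 6.05% of 9417 genes in that direction, and 0 the other way, against 2.27%. They were HOXA4 at 5.89 (1.05 to 233) on 1 adult UMI, HOXA5 at 5.96 (2.73 to 16.2), HOXA6 at 4.29 (2.26 to 9.41) and HOXC10 at 4.09 (1.98 to 10.2). HOXA2, HOXA11, HOXC11, HOXD1, HOXD8 and HOXD11, with 0 adult UMIs, could not be called on that scale either. On that scale the intervals of HOXC6 (0.871, 0.607 to 1.30), HOXC9 (0.791, 0.580 to 1.11) and HOXA7 (0.593, 0.317 to 1.25) held 1, while HOXB7 stayed lower in the newborn at 0.249 (0.121 to 0.595). HOXA5, HOXA6 and HOXC10 were higher in the newborn on both scales.

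**Figure D3:**
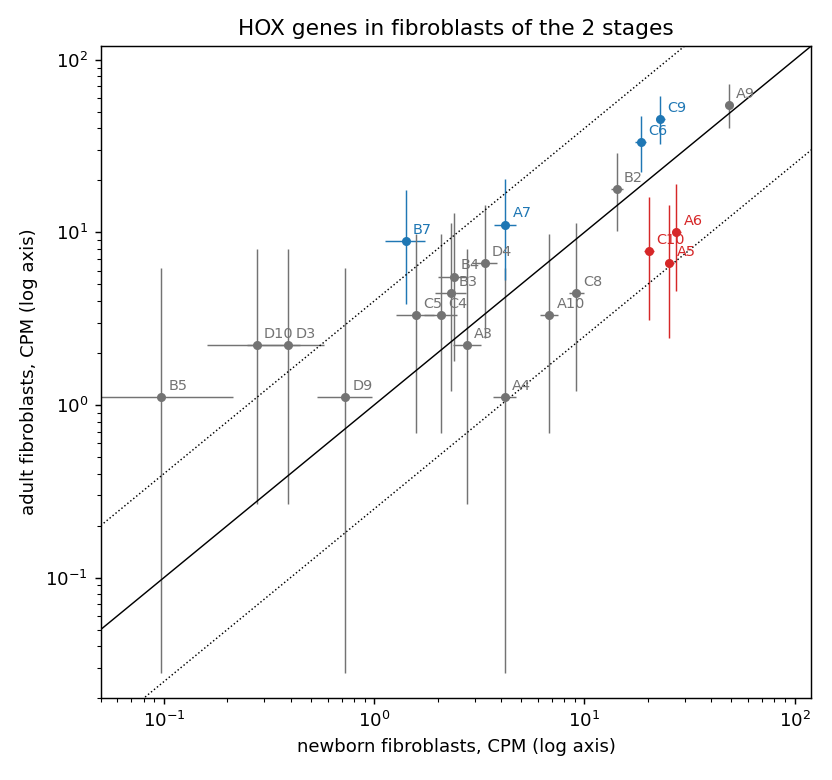
Each point is a HOX gene counted in fibroblasts of both libraries, with newborn CPM on the horizontal and adult CPM on the vertical log axis and exact 95% intervals as lines. The solid line marks equal levels and the dotted lines 4-fold. Red marks members whose ratio interval lies above 1 in the newborn (A5, A6, C10), blue those lying below it (A7, B7, C6, C9), and grey the others.

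Members of the pathway around HOX were read in the same fibroblasts. All ratios and calls of these lists, here and in the next paragraph, are on CPM only. On the scale of the median gene (0.639) every newborn over adult ratio would be larger. Which genes pass 4-fold, EZH2 and SUZ12 among them, therefore depends on the scale, and calls on that scale are not given for these lists. Of 9 genes of the PBX, MEIS and PREP families, whose proteins bind DNA together with HOX proteins, 6 could be compared. Past 4-fold there were 0, against 8.31% of all 8191 genes, and the median log2 ratio was -0.54. MEIS2 had 36.9 CPM in newborn and 41.0 CPM in adult fibroblasts. MEIS1 (19.4 against 42.1 CPM, 2.17-fold, 1.53 to 3.00) and MEIS3 (14.6 against 37.7 CPM, 2.58-fold, 1.78 to 3.63) were higher in the adult. The ratio intervals of MEIS2 and PKNOX1 held 1. Of 20 Polycomb and trithorax genes, which keep HOX clusters silent or open, 15 could be compared. Past 4-fold there were 0, against the same 8.31%, and the median log2 ratio was -0.64. Single genes differed by less, and both ways. Newborn fibroblasts had more EZH2 (40.15 against 12.19 CPM, 3.3-fold, 1.84 to 6.61) and SUZ12 (72.34 against 24.37 CPM, 2.97-fold, 1.96 to 4.74). Adult fibroblasts had more EZH1 (44.31 against 14.11 CPM, 3.14-fold, 2.23 to 4.31). KDM6B, which removes a Polycomb mark, had 330 CPM in newborn and 163 CPM in adult fibroblasts. The medians of the HOX genes themselves (-0.24 over 12 genes of at least 5 CPM) and of all genes (-0.65 over 8889) stand beside these.

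Other genes of position and signals for HOX genes gave larger single differences. Of 36 further transcription factors of limb and trunk, 20 could be compared. Past 4-fold there were 2 each way, against 8.31% of all 8191 genes either way. EMX2 (89.8 against 21.1 CPM, 4.27-fold, 2.73 to 7.09) and IRX6 (16.2 against 3.32 CPM, 4.88-fold, 1.67 to 23.7) were higher in the newborn. NR2F1 (5.63 against 68.7 CPM, 12.2-fold, 9.16 to 16.0) and NR2F2 (15.3 against 67.6 CPM, 4.42-fold, 3.35 to 5.73), both nuclear receptors, were higher in the adult. That list had a median of 0.36. NR2F1 and NR2F2 also stood at 433 and 406 CPM in adult endothelium, while the 6 endothelial genes not used for gating summed to 33.2 CPM in adult fibroblasts, and the part of endothelial RNA in these 2 differences was not tested. TBX3, a gene required for the mammary bud, had 171 CPM in newborn and 72.0 CPM in adult fibroblasts. Of 18 genes of retinoic acid, a signal that switches on HOX genes, 9 could be compared, with a median of -0.49. Of these, 2 passed 4-fold toward the newborn side and 1 toward the adult side, against the same 8.31%. CYP26B1, which breaks retinoic acid down, had 116 CPM in newborn and 0 UMIs in adult fibroblasts, at least 35.0-fold higher. CRABP1, which binds it, was higher in the newborn at 22.6 against 4.43 CPM, and ALDH1A1, which makes it, was higher in the adult at 284 against 28.7 CPM.

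Immune cells of the same library served as the reference level. How much of that level was free RNA or other background, and how much their own transcripts, was not tested. Members were compared with it when they had at least 10 UMIs in the class. A member therefore entered through the class in which it was counted. In adult endothelium 25 of 25 such members were 4-fold or more above immune cells, against 20.3% of all genes. In adult fibroblasts it was 5 of 5, against 22.5%, and in adult epithelium 9 of 12, against 15%. In newborn fibroblasts it was 5 of 29, against 7.18%, because 627592 immune UMIs with 0 for a member still allow 4.78 CPM. HOXA9 was 35.0-fold (22.0 to 56.4) above immune cells in adult fibroblasts, 25.7-fold (17.9 to 38.1) in adult endothelium and 11.4-fold (7.95 to 16.9) in adult epithelium. HOXB4, a gene of blood stem cells, had 24 UMIs in adult T and NK cells and HOXC6 had 16, while endothelium had 87 and 453. Other members counted in T and NK cells were HOXA9 with 29 UMIs and HOXA5 and HOXD4 with 14 each. Endothelium had 426, 374 and 462 UMIs of these. The source of the counts in T and NK cells was not tested.

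Adult endothelium held 29 members with at least 3 UMIs over 10663237 UMIs. HOXB7 had 44.0 CPM (40.1 to 48.1), HOXD4 43.3 (39.5 to 47.5), HOXC6 42.5 (38.7 to 46.6), HOXA9 40.0 (36.2 to 43.9), HOXD10 35.4 (32.0 to 39.2), and HOXA5 and HOXA6 35.1 (31.6 to 38.8) each. Neighbours in this order overlapped, so endothelium had no single leading member. HOXD9 at 25.2 CPM and HOXC9 at 23.3 CPM formed the next step. HOXD3, known to promote vessel sprouting, and HOXA7 had 13.7 CPM each.

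Endothelium and fibroblasts of the adult differed in members of each cluster. Of 24 members with at least 10 UMIs in the higher class, 6 were 4-fold or more higher in endothelium, against 5.98% of 10367 genes, and 1 in fibroblasts, against 6.95%. The limit of 10 UMIs stands for 11.1 CPM in fibroblasts but only 0.938 CPM in endothelium. Members higher in fibroblasts could thus enter only at a high level, and 6 against 1 is not read as a lean toward endothelium. HOXD9 was 22.8-fold (4.05 to 903) and HOXD10, known to hold vessel cells at rest, 16.0-fold (4.4 to 133) higher in endothelium, on 1 and 2 fibroblast UMIs. HOXD4 had 43.3 against 6.65 CPM, HOXD3 13.7 against 2.22 CPM, HOXA5 35.1 against 6.65 CPM and HOXB7 44.0 against 8.86 CPM. HOXB8 and HOXB9, at 7.03 and 6.0 CPM in endothelium, had 0 UMIs in fibroblasts, which allow up to 3.32 CPM, and were not called. HOXB2 went the other way, at 17.7 CPM in fibroblasts and 2.44 CPM in endothelium, a 7.27-fold (3.64 to 14.1) difference. HOXC10, at 7.76 against 0.844 CPM, was 9.19-fold (2.91 to 27.7) higher in fibroblasts but had under 10 UMIs in both. HOXA10, on 3 fibroblast and 0 endothelial UMIs, was at least 11.8-fold higher in fibroblasts and did not enter either. HOXC9 was 1.945-fold (1.362 to 2.715) higher in fibroblasts. HOXA9 (54.3 against 40.0 CPM) and HOXC6 (33.2 against 42.5 CPM) had ratio intervals that held 1.

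These differences are mainly between fibroblasts and lymphatic cells. In a comparison added after the data were seen, fibroblasts were set against the 119 other endothelial cells, where 9 members had at least 10 UMIs in the higher class. HOXC9 (45.4 against 4.15 CPM, 10.9-fold, 3.49 to 55.2) and HOXC6 (33.2 against 4.15 CPM, 8.0-fold, 2.49 to 41.0) were higher in fibroblasts, 2 members against 13.4% of 8008 genes. HOXB7 alone was 4-fold or more higher in these endothelial cells, against 5.74%, at 52.6 against 8.86 CPM. HOXB2 no longer went toward fibroblasts: it had 33.2 CPM in the other endothelial cells, and the ratio of fibroblasts over them was 0.534 (0.265 to 1.05). HOXD4, HOXD9 and HOXD10 had ratio intervals that held 1, on 3 to 11 UMIs in these endothelial cells.

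In the newborn, HOXD10 differed most between endothelium and fibroblasts among the members compared. The gate left only 29 endothelial cells, so fibroblast markers were ignored when endothelium was gated, a choice made after the small class was seen, which gave 84 cells and 324 CPM (284 to 368). That gate can admit doublets of endothelial cells and fibroblasts: the 10 fibroblast markers summed to 4221 CPM in the 84 cells, 469 CPM in the 29 and 27590 CPM in newborn fibroblasts, and their part in the levels of the 84 cells was not tested. In these cells HOXD10 reached 64.3 CPM (47.2 to 85.4), with a UMI in 24 of 84 cells, against 0.276 CPM (17 UMIs) in newborn fibroblasts, a 233-fold (131 to 433) difference. HOXD9 was 22.5-fold (10.8 to 43.2) and HOXB7 21.3-fold (12.7 to 34.4) higher in endothelium. HOXC9 was at 0.179 (0.0368 to 0.523) and HOXC10 at 0.135 (0.0163 to 0.489) of the fibroblast level. These were 3 members higher and 2 lower of 19 compared, against 5.76% and 3.54% of 10864 genes. Members with under 10 UMIs in the 84 cells did not enter through them. Among these were HOXD3 (24.6-fold, 8.95 to 58.8), HOXB9 (67.45-fold, 13.4 to 313) and HOXB8 (84.3-fold, 6.11 to 1163). They had 7, 4 and 2 endothelial UMIs, and HOXD9 did not separate from them or from HOXB7. With the gate that left 29 cells, 1 of 18 members was 4-fold higher in endothelium, against 4.42% of 9753 genes: HOXD10, at 69.9 CPM (38.2 to 117). Another, HOXA9 on 2 endothelial UMIs, was lower (9.98 against 48.5 CPM), against 3.5% of genes, whereas in the 84 cells, with their higher fibroblast marker level, it had 30.1 CPM. In the 29 cells only HOXD10 had at least 10 UMIs. The other members compared entered through fibroblasts and could not be called higher in endothelium. HOXB7 (24.8-fold, 9.67 to 53.2), HOXD3 (51.3-fold, 12.9 to 149) and HOXD9 (20.5-fold, 4.08 to 63.9), on 7, 4 and 3 endothelial UMIs, did not enter.

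Between stages, the summed ratio of newborn over adult endothelium was 0.813 (0.632 to 1.03) for the 29 cells. The limit of 20 UMIs stands for 99.8 CPM in these cells, and the highest member, HOXD10, had 14 UMIs, so only members higher in the adult could be compared. HOXA3, on 4 newborn UMIs, was 4.26-fold (1.12 to 11.6) higher in the newborn and did not enter. Of 14 members, 2 passed 4-fold with higher levels in the adult, against 3.39% of 7376 genes: HOXA9 (9.98 against 40.0 CPM) and HOXC6 (9.98 against 42.5 CPM), each on 2 newborn UMIs. The 7376 genes could enter through either library, so these shares are not alike. HOXA4, HOXB8, HOXB9, HOXC4 and HOXC8 entered with 0 newborn UMIs and at most 7.03 CPM in the adult. That is under the 15.0 CPM that 0 UMIs allow in the 29 cells, so they could not be called. With the 84 cells, HOXA9 had 30.1 against 40.0 CPM and its ratio, 0.752 (0.466 to 1.15), held 1. HOXC6 had 10.9 against 42.4 CPM, at 0.258 (0.111 to 0.512), just short of 4-fold. In the 84 cells 20 UMIs stand for 27.3 CPM. There 1 of 19 members passed, against 3.86% of 8775 genes: HOXC9, at 4.10 against 23.8 CPM (0.173, 0.0353 to 0.510). HOXD10 was 1.80-fold (1.30 to 2.44) higher in the newborn. Most adult endothelial cells were lymphatic (1593 of 1712) against 18 of 29 in the newborn, so these ratios mix stage with vessel type. Lymphatic cells alone summed to 433.7 CPM (334.7 to 552.8) over the 18 newborn cells. The 1593 adult lymphatic cells stood at 437.9 CPM (425 to 451.1). The 11 other newborn cells carried 79.27 CPM (21.6 to 203) on 4 UMIs, beside 224.3 CPM (191.1 to 261.6) for the 119 other adult cells. The part of vessel type in the ratios of single members was not tested.

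Within adult endothelium, lymphatic cells and the other endothelial cells carried different members. The sum was 438 CPM (425 to 451) over 1593 lymphatic cells and 224 CPM (191 to 262) over 119 others. Of 24 members, 4 were 4-fold or more higher in lymphatic cells, against 5.51% of 10242 genes, and 1 in the others, against 3.01%. HOXC6 had 45.3 against 4.15 CPM (10.9-fold, 3.71 to 53.1), HOXD9 26.8 against 4.15 CPM (6.44-fold, 2.18 to 31.4), HOXC9 24.8 against 4.15 CPM (5.96-fold, 2.02 to 29.1) and HOXD10 37.5 against 6.92 CPM (5.42-fold, 2.30 to 16.8). The lower levels rest on 3 to 5 UMIs. HOXA2, HOXA3, HOXA4, HOXB6, HOXC4, HOXC5 and HOXC8 entered with 0 UMIs in the others and at most 7.04 CPM in lymphatic cells. As 0 UMIs allow up to 4.15 CPM in the others, no 4-fold call was possible for them. The limit of 10 UMIs stands for 13.8 CPM in the others and 1.01 CPM in lymphatic cells, so members higher in the others entered only at a high level.

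HOXB2 was higher in the other cells, and it is described here after its values were seen. It had 24 UMIs in 19 of the 119 other endothelial cells, or 33.2 CPM (21.3 to 49.4), and 2 UMIs in 1593 lymphatic cells, or 0.201 CPM (0.0244 to 0.727). Markers of fibroblasts, which also carry HOXB2, summed to 41.5 CPM in the other endothelial cells and to 86.3 CPM in lymphatic cells, against 24450 CPM in fibroblasts, and 6 of the 10 were at 0 in the other cells. Mural cell markers summed to 26.3 CPM in the other cells, on 19 UMIs of 4 of 10 markers, and to 6.04 CPM in lymphatic cells, with 7 of 10 counted. RGS5, KCNJ8 and ABCC9 were at 0 in both, and MYH11, CSPG4 and MCAM in the other cells only. The part of fibroblast and mural cell RNA in the HOXB2 level was not tested. HOXB7 was high in both, at 52.6 CPM (37.2 to 72.2) in the others and 43.4 CPM (39.4 to 47.7) in lymphatic cells.

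Adult epithelium was split by milk: 244 cells took at least 20% of their UMIs from milk genes, 28 were basal and 721 neither, with 11 cells within 5 points of that limit. Cells that were not secreting carried 88.9 CPM (83.1 to 95) and milk-secreting cells 7.64 CPM (6.17 to 9.36). The 28 basal cells had 60.2 CPM (43.7 to 80.8), of which HOXA9 gave 30.1 CPM. In the 721 cells HOXA9 stood alone at 38.3 CPM (34.5 to 42.4), with a UMI in 170 cells, followed by HOXB2 at 8.88 CPM (7.11 to 11), HOXA5 at 8.16 CPM, HOXA6 at 6.74 CPM and HOXC6 at 6.63 CPM. Against these, the HOXD members of epithelium stayed at or under 0.510 CPM.

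Milk genes take up much of the total of secreting cells, which lowers the CPM of other genes there. With milk genes in the totals, 9 of 11 members were 4-fold or more lower in secreting cells, against 65% of 11923 genes. With milk genes left out of the totals, a choice added after the data were seen, 6 of 11 members were lower, against 10.9% of 11591 genes. HOXA9 had 1.67 against 38.7 CPM, on 5 UMIs against 375, HOXB2 0.334 against 8.98 CPM, HOXA5 0.334 against 8.26 CPM, and HOXA6 had 0 UMIs against 6.81 CPM. HOXB3 and HOXB4 had 1 UMI each in secreting cells. HOXC members behaved differently: HOXC10 had 16 UMIs in 13 secreting cells and 1 UMI in 721 others (51.8-fold, 8.05 to 2173), 1 of 11 members higher against 3.52% of genes. HOXC9 had 13.7 against 3.61 CPM (3.79-fold, 2.36 to 6.14) and was found in 33 of 244 secreting cells. HOXC6 (4.35 against 6.71 CPM) and HOXC8 (1.67 against 3.41 CPM) had intervals that held 1. HOXC thus gave 81.7% (72.4 to 89.0) of HOX UMIs in secreting cells and 16.1% (13.7 to 18.7) in the others. On the same totals without milk genes, fibroblast markers summed to 39.4 CPM and endothelial markers to 26.4 CPM in secreting cells, against 110.6 and 38.6 CPM in the others, and their part in the HOXC counts was not tested.

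**Figure D4:**
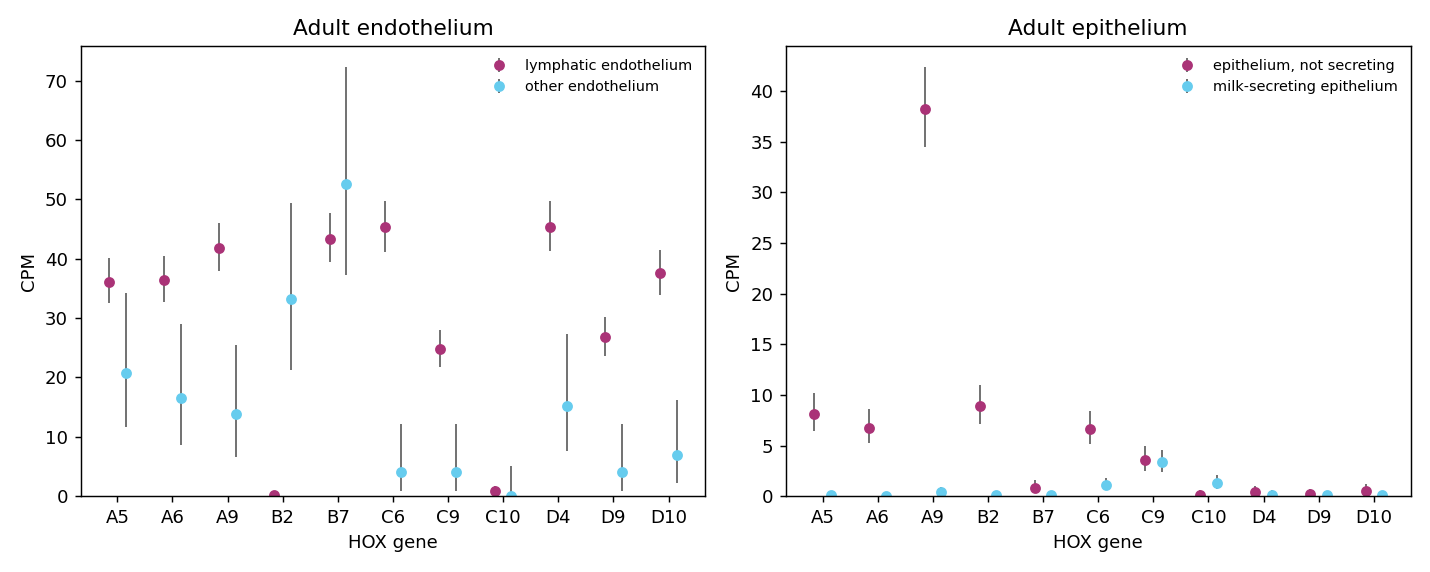
Points give CPM with exact Poisson intervals for the named HOX genes, in lymphatic and other endothelium (left) and in non-secreting and milk-secreting epithelium (right) of the adult, with totals that include milk genes. HOXB2 is high in other endothelium and near 0 in lymphatic cells, and A9 is high in non-secreting epithelium.

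Compared with epithelium as a whole, adult endothelium was 4-fold or more higher for 22 of 25 members, against 17.3% of 12969 genes. HOXA9 (2.26-fold, 1.96 to 2.59), HOXC8 (3.73-fold, 2.49 to 5.64) and HOXB2, at 0.622 (0.386 to 0.972) of the epithelial level, were the exceptions. Adult fibroblasts were higher than epithelium for 4 of 5 members, against 18% of 9915 genes: HOXC9 by 13.4-fold (8.94 to 19.8), HOXC6 by 8.88-fold (5.65 to 13.6), HOXA7 by 8.11-fold (3.55 to 17.0) and HOXB2 by 4.52-fold (2.48 to 7.75). With the deepest 10% of cells left out, epithelium rose to 145.8 CPM in sum, which was still below both. Milk transcripts lower the CPM of the whole class, so both were also set against the 721 cells that were not secreting, after the data were seen. Endothelium was then higher for 21 of 25 members, against 10.5% of 12788 genes, and HOXA9 was level, with a ratio of 1.04 (0.907 to 1.20). Fibroblasts were higher for 2 of 6, against 9.66% of 10514 genes: HOXC9 by 12.7-fold (7.90 to 20.6) and HOXC6 by 5.01-fold (3.14 to 7.84). HOXA7, at 3.88-fold (1.68 to 8.22), and HOXB2, at 2.0-fold (1.09 to 3.43), no longer passed 4-fold.

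Newborn fibroblasts were then divided by genes of contraction, of fat, of POSTN and of PI16, CLEC3B or DPP4, and each subset was compared with all other fibroblasts. The summed HOX level ranged from 194 CPM (184 to 205) in 892 POSTN cells over 217 CPM in 9281 PI16 or CLEC3B cells and 228 CPM (208 to 249) in 283 contractile cells to 238 CPM (230 to 246) in 2596 PPARG cells. The PI16 or CLEC3B gate took most of the class, so it separates little. Cells in no subset, with a median of 2445 UMIs, had 285 CPM (272 to 298). The HOXA share lay between 43.8% in contractile and 60.2% in cells of no subset.

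Single members varied more than the sum. HOXB2 had 42.8 CPM in contractile cells, on 90 UMIs, and 13.2 CPM in the rest (3.23-fold, 2.57 to 4.03), and HOXA10 had 12.8 against 6.58 CPM (1.95-fold, 1.27 to 2.88). HOXA5 was lower in contractile cells, at 15.2 against 25.7 CPM (0.593, 0.404 to 0.841). Mural cell markers, CNN1 among them, summed to 199 CPM in contractile cells and 25.8 CPM in the class, with ACTA2 and RGS5 at 0 in contractile cells, and their part in the HOXB2 level was not tested. In PPARG cells HOXB2 was lower, at 9.46 against 15.9 CPM (0.596, 0.496 to 0.712), and HOXB7 higher, at 2.43 against 1.07 CPM (2.28-fold, 1.45 to 3.56). In POSTN cells HOXA5 (0.749, 0.618 to 0.900) and HOXA6 (0.688, 0.568 to 0.827) were lower. Past 4-fold there was 1 of 22 members in contractile cells, HOXC4 on 1 UMI and lower, against 1.49% of 11829 genes in that direction. In the PPARG, POSTN, and PI16 or CLEC3B cells it was 0 of 27, 0 of 27 and 0 of 24 either way, against 1.15%, 0.79% and 1.15% of all genes. The interval of HOXA9 held 1 in contractile (0.849, 0.678 to 1.05), POSTN (0.914, 0.806 to 1.03) and PPARG cells (1.03, 0.953 to 1.12), and its ratio was 0.703 (0.643 to 0.77) in PI16 or CLEC3B cells, most of whose counterparts were the shallow cells of no subset.

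**Figure D5:**
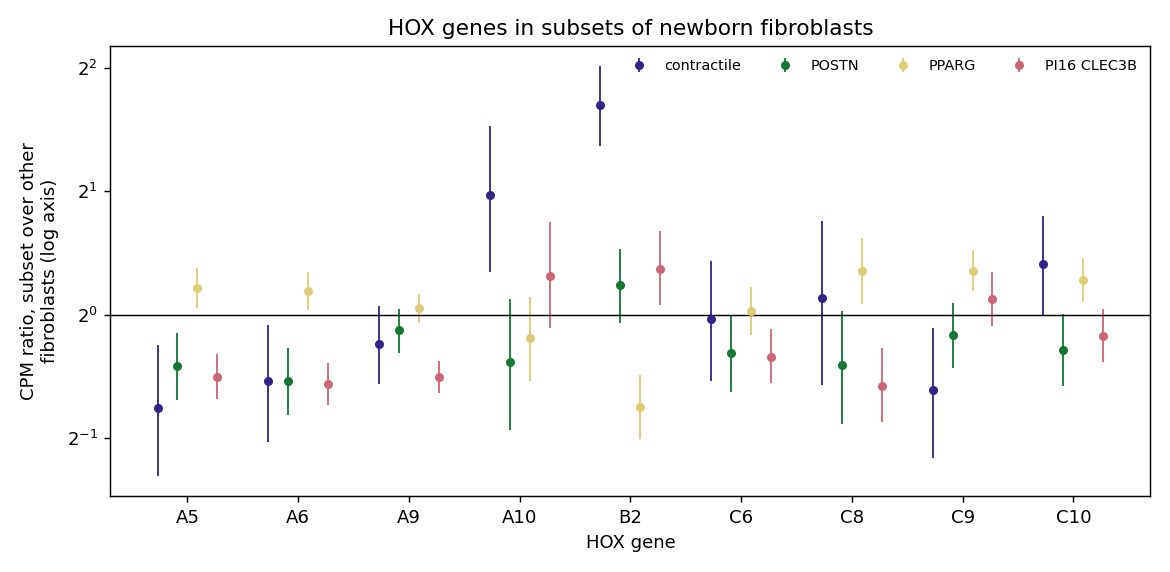
Points give the ratio of CPM in a subset of newborn fibroblasts over all other fibroblasts on a log axis, with exact 95% intervals, for the HOX genes above 5 CPM. HOXB2 is the point farthest above 1, in contractile cells, and lies below 1 in PPARG cells.

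Neighbouring genes can share reads. By the RefSeq annotation of assembly ARS-UCD2.0, in which all 39 symbols were found, 14 of the genes form 9 pairs whose annotated spans overlap, among them HOXA5 with HOXA6, HOXD3 with HOXD4 and HOXD10 with HOXD11. The sources used here do not state whether counting used the strand or which gene models, and the split of UMIs within such pairs is therefore uncertain. In newborn fibroblasts thinned to 2000 UMIs, HOXA5 was found in 13.8% of cells with HOXA6 and in 4.14% of cells without it, the widest gap among the 15 pairs of the 6 most counted members. HOXA9 and HOXC10, from different clusters, met in 46 cells, where the product of their shares gives 38.8. The counts of HOXA5 and HOXA6 are thus best read together.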

How the data were processed

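Single-cell libraries of 1 lactating adult and 1 newborn mammary gland were analysed. The authors deposited raw UMI counts per gene and barcode, for which the submitters' processing notes name Cell Ranger 3.1.0. The sources used here do not give genome build, annotation or strand setting. Neither coordinates nor sequences are printed. Library totals were 85388618 (adult) and 65597671 (newborn) UMIs, and no per-sample column was left unused (0).

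Barcodes with at least 300 genes and at most 20% UMIs of 13 mitochondrially encoded genes were kept. Each of 10 lists of 10 markers defined a class: a cell joined it with at least 3 markers held and every other list holding at most 50% as many. This removes cells with strong markers of different classes, as doublets have, except that the 84-cell newborn endothelial class, gated without regard to fibroblast markers, can hold doublets with fibroblasts; no doublet caller was run. UMIs were summed per class and given as CPM with exact Poisson intervals; ratios have exact conditional binomial intervals, and shares Clopper-Pearson intervals, at 95%. A difference was counted at 4-fold with at least 20 UMIs in the higher group (between stages) or 10 (otherwise); 0 UMIs were set to 3 in ratios. Medians over lists took genes of at least 5 CPM on average, with a prior count of 0.5. Subsets were lymphatic endothelium (at least 2 markers), basal epithelium (at least 3), milk-secreting cells (at least 20% milk UMIs) and fibroblasts with at least 2 UMIs of a subset list.

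Every member may be named, with full values for those of at least 20 CPM and 20 UMIs in fibroblasts, endothelium or epithelium; of the other lists, genes that differed by 4-fold and some of the most abundant are named. HOXB2 and single low members were chosen after their values were seen. A further gene list is not reported here. Members and lists were chosen with earlier results of these data known. Alternatives covered the gates, cell filters, deepest cells, scaling, minimum UMIs and thinning. Python 3.11.15, numpy 2.4.6 and scipy 1.17.1 were used, and the ratio step was tested on simulated data.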

Additional observations from a re-analysis of the deposited data

Results flagged for a closer look

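HOX UMIs also appeared in cells that passed the cell filter but entered no class, and so took part in no comparison. In the 5366 such adult cells the 39 genes summed to 106.3 CPM, and in the 1078 such newborn cells to 141.8 CPM, both above the immune cells of their library. Of the adult cells, 2388 held markers of more than 1 list and 2978 held under 3 markers of any list. In the newborn these were 510 and 568 cells. The kinds of cell behind these counts were not tested.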

How the results depend on the processing

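Under the alternatives run, 133 of the summary values stayed close and 53 moved, given here. The summed newborn over adult ratio, whose interval held 1 in both classes, crossed 1 under some of them: in fibroblasts it went from 0.951 to 1.02 with totals without ribosomal protein, mitochondrial and milk genes and to 1.49 (1.30 to 1.71) scaled by the median ratio, and in endothelium from 0.813 to 1.51 (0.778 to 2.65) with the strict gate. With 1 library a stage, counting error is the only error measured, and classes of few cells limit what can be seen: 29 or 84 newborn endothelial cells, 244 adult fibroblasts and 351 newborn immune cells. No paired analysis was possible because each stage has 1 library, and none could be left out.

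With a strict gate (at least 4 own markers and at most 1 of another list) the summed HOX level was 275.7 CPM in adult fibroblasts, 479.6 in adult endothelium, 60.29 in adult epithelium, 8.762 in adult immune cells, 241.3 in newborn fibroblasts and 723.7 in newborn endothelium. Members counted were 8 in adult fibroblasts, 7 in adult epithelium and 1 in newborn endothelium. Members above immune cells were 3 in adult fibroblasts, 1 in adult epithelium, 0 in newborn fibroblasts and 0 in newborn endothelium. Between stages 1 member was higher in newborn fibroblasts, 0 in adult endothelium, and the summed endothelial ratio was 1.51. With a loose gate (at least 2 markers) the level was 50.34 CPM in adult epithelium, 19.42 in adult and 21.01 in newborn immune cells. The members counted in newborn endothelium were 15, those above immune cells 9 in newborn fibroblasts and 6 in newborn endothelium, and 1 was higher in newborn fibroblasts and 1 in adult endothelium.

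Without the deepest 10% of cells the level was 498.8 CPM in adult endothelium, 145.8 in adult epithelium and 239.1 in newborn fibroblasts, and newborn endothelium had 4 members. Without ribosomal protein, mitochondrial and milk genes in the totals it was 295.4 in adult fibroblasts, 548.7 in adult endothelium, 101.8 in adult epithelium, 15.73 in adult immune cells and 302.7 in newborn fibroblasts, with 2 members higher in newborn fibroblasts. Scaled by the median ratio, 4 members were higher in newborn fibroblasts, the summed ratio was 1.49, and 0 were higher in adult endothelium. Both other cell filters left 1 member higher in adult endothelium.

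Counting members at 10 UMIs gave 5 in adult fibroblasts, 12 in adult epithelium and 1 in newborn endothelium, and at 1 UMI 17 in newborn endothelium. At 20 UMIs, 3 members of adult fibroblasts and 0 of newborn endothelium lay above immune cells, and at 2-fold 8 of newborn fibroblasts. Allowing fibroblast markers in endothelium, chosen after seeing the data, gave 17 members, 5 above immune cells and 1 higher in the adult. Thinned to 2000 UMIs, shares with a HOX UMI were 39.71% in adult fibroblasts, 59.52% in adult endothelium, 11.42% in adult epithelium and 33.89% in newborn fibroblasts.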
